A study of Bos taurus with 6 samples.

Results

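The actins described here are the striated pair, ACTA1 (skeletal alpha-actin) and ACTC1 (cardiac alpha-actin), and the cytoplasmic pair, ACTB (beta-actin) and ACTG1 (gamma-actin). They were taken from the table by gene name, 4 of 21972 genes, and all 4 passed the filter on low values that left 9990 genes for testing. ACTC1 was picked because it stood out between the breeds in the deposited counts, so its breed difference is given as a description, with no test. The other 3 were picked as its close relatives.

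Actin is the protein of the thin filament of muscle and of the microfilaments that every cell builds under its membrane. Mammals carry several actin genes whose proteins are nearly identical. ACTC1 is the main actin of the heart and is also made in developing and regenerating skeletal fibres, where ACTA1 takes over as the fibre matures. ACTB and ACTG1 are made in nearly all cell types, which is why ACTB is so often used as a reference in quantitative PCR, the study's own PCR included.

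The muscle was the longissimus dorsi, the long muscle beside the spine, of 3 Wagyu (Japanese black) males labelled WC616, WC719 and WC921 and 3 Chinese Red Steppes males labelled RC4, RC5 and RC6, all 28 months old, with 1 poly(A) library per animal. The males of a breed had 1 sire and came from 1 farm, so breed, sire and farm cannot be told apart. All 10 skeletal muscle markers were found, with a summed level of 67640 to 72219 FPKM in the Wagyu libraries and 58097 to 76703 FPKM in the Chinese Red Steppes libraries. FPKM is the count per gene scaled to gene length and to the total counted to genes, and 15438095 to 16197141 reads were counted to genes per library. RC6 stood apart from the other libraries. Its reads on the 13 mitochondrially encoded genes made up 10.4% of the total, against 4.79% to 5.79% in the other 5, and its slow fibre markers summed to 81081 FPKM, against 36731 to 49013 FPKM in the Wagyu libraries and 25942 to 30079 FPKM in the other Chinese Red Steppes libraries. The part of these differences in the actin values was not tested.

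ACTA1 builds the thin filament of adult skeletal fibres, and it was the gene with the highest FPKM in all 6 libraries. ACTA1 (ENSBTAG00000046332) measured 36258, 32327 and 31588 FPKM in WC616, WC719 and WC921, against 41181, 43206 and 45751 FPKM in RC4, RC5 and RC6. Each Wagyu library lay below each Chinese Red Steppes library, and the spread within a breed was small. The breed means were 33391 ± 2510 FPKM in Wagyu, against 43379 ± 2290 FPKM in Chinese Red Steppes as mean ± SD of 3 animals per breed, and the Wagyu mean was 0.770 times the other. On the log2(FPKM + 1) scale on which all genes were tested the difference was -0.38 (SE 0.22, 95% interval -0.88 to 0.12), and it did not pass the test (limma, adjusted p = 0.455). In bulk muscle, fewer cells of a type and less RNA per cell cannot be told apart, for ACTA1 or for any other gene here.

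A single gene made up a large part of the counted reads. ACTA1 alone took 5.48%, 4.88% and 4.77% of the reads in WC616, WC719 and WC921, against 6.22%, 6.53% and 6.91% in RC4, RC5 and RC6. At 770344 or more reads per library the counting error of these shares was negligible (95% Wilson interval 4.76% to 4.78% in WC921, for example). The runner-up by FPKM was TNNC2, the calcium-binding troponin of fast fibres, in 5 libraries and MYL2, a slow fibre myosin light chain, in RC6. ACTA1 exceeded the runner-up 1.34, 1.21 and 1.48 times in the Wagyu libraries, against 1.39, 1.24 and 1.77 times in the Chinese Red Steppes libraries. Because ACTA1 was top in every library, quantile normalization sets its breed difference to 0 by construction.

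ACTC1 was far less abundant and far more variable. ACTC1 (ENSBTAG00000005714) measured 170, 53.7 and 6.76 FPKM in WC616, WC719 and WC921, against 1.35, 4.50 and 6.55 FPKM in RC4, RC5 and RC6. The high values were those of WC616 and WC719, and the lowest Wagyu library, WC921, was level with the highest Chinese Red Steppes library, RC6. The means were 77.0 ± 84.3 FPKM in Wagyu, against 4.13 ± 2.62 FPKM in Chinese Red Steppes (SD, n = 3 each), so that the Wagyu SD exceeded the Wagyu mean. The ratio of the means was 18.6 and that of the medians 11.9. Without WC616, which held the highest value, the ratio of the means was 7.32. The difference on the log2(FPKM + 1) scale was 3.18 (SE 1.02), and over the other settings and left-out libraries that were tried it lay between 2.16 and 4.40.

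The counts behind ACTC1 show how firm each value is. It had 3745, 1205 and 151 reads in WC616, WC719 and WC921, against 30, 98 and 140 reads in RC4, RC5 and RC6. Scaled to the reads counted in each library, WC921 had 9.36 RPM of ACTC1 (95% Wilson interval 7.98 to 10.97) and RC6 had 9.07 RPM (7.69 to 10.7), so these libraries did not differ beyond counting error. Both lay far below WC719, with 74.4 RPM (70.3 to 78.7), and WC616, with 236 RPM (229 to 244). That the breeds did not overlap for ACTC1 therefore rests on a gap that counting error can close. ACTC1 ranked 419, 1222 and 5124 by FPKM in the Wagyu libraries, against 9131, 6115 and 5222 in the Chinese Red Steppes libraries.

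**Figure D1:**
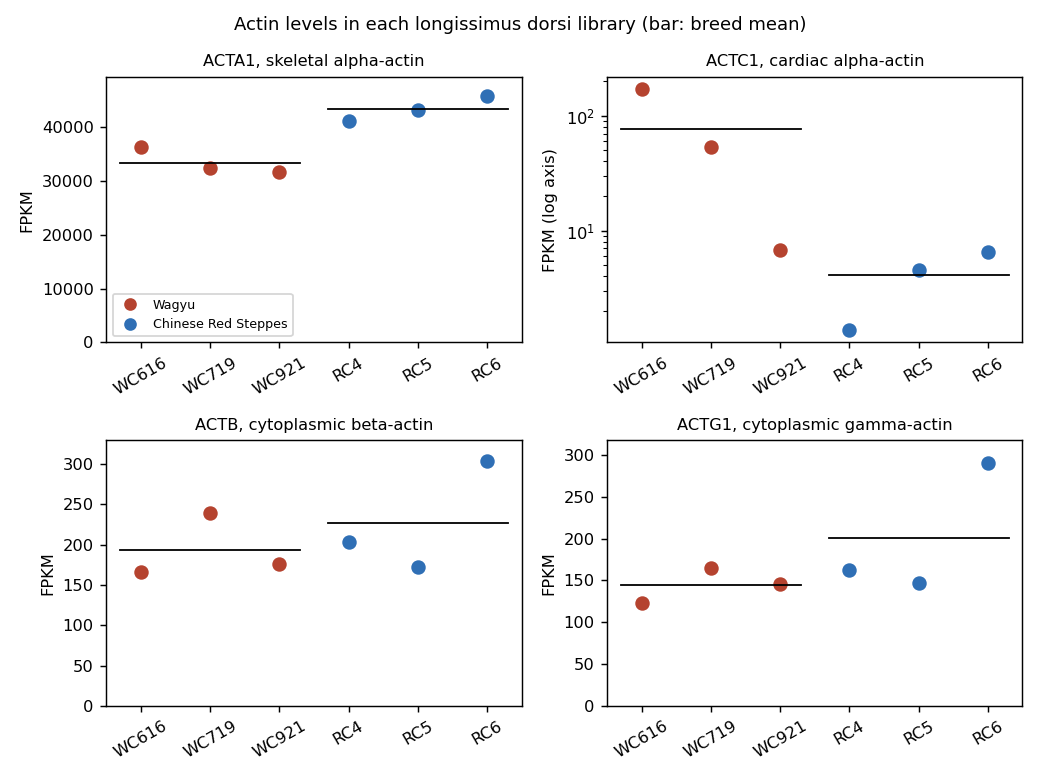
FPKM of the 4 actins (vertical axis, logarithmic for ACTC1 and from 0 for the others) in each library (points) with the breed means (bars). The 3 Wagyu libraries lie below the 3 Chinese Red Steppes libraries for ACTA1, ACTC1 spans 170 to 6.76 FPKM within Wagyu, and RC6 is highest for ACTB and ACTG1.

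The spread of ACTC1 between animals of a breed was wide against other genes. Its highest Wagyu value was 25.2 times its lowest, and its highest Chinese Red Steppes value 4.85 times its lowest. Of the 9990 genes tested, 1 had a wider range over the Wagyu libraries on the log2(FPKM + 1) scale. That gene was SNORD50, a small nucleolar RNA listed at 0 in WC616 and WC719 and at 23.9 FPKM in WC921. ACTC1 was picked because it stood out in these same libraries, so its place by range is a description only.

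Read against the whole transcriptome, 2 of the 4 actins did not overlap between the breeds, ACTA1 with Wagyu below and ACTC1 with Wagyu above, where 20.6% of all genes tested did not overlap (Wagyu below in 9.16%, Wagyu above in 11.4%). Nothing is read from the ACTC1 member of that count, since it was picked on this contrast. None of the other 3 actins passed the limma test, where 0.02% of genes did. That share is 2 of 9990 genes, and without adjustment 863 genes passed 0.05 with Wagyu above and 586 with Wagyu below. That split moved with the scaling, to 688 above and 749 below under quantile normalization, 1026 above and 455 below with FPKM scaled to an equal sum, and 816 above and 828 below with edgeR on reads. Tests on reads called 0.0685% (edgeR) and 1.94% (DESeq2) of the genes each tested, and ACTA1, ACTB and ACTG1 were not among them, nor did any of the 3 pass limma at an unadjusted p under 0.05.

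Within the striated pair, ACTC1 was a trace isoform in every library. It made up 0.468%, 0.166% and 0.0214% of ACTA1 plus ACTC1 FPKM in WC616, WC719 and WC921, against 0.00328%, 0.0104% and 0.0143% in RC4, RC5 and RC6. The order of the libraries by share was that of the ACTC1 levels themselves. The sources used here do not say how reads matching both genes were counted. ACTC1 reads numbered 0.431, 0.152 and 0.0196 per 100 ACTA1 reads in WC616, WC719 and WC921, against 0.0030, 0.00955 and 0.0131 in RC4, RC5 and RC6. The part of shared reads in these values was not tested. The deposited annotation gives human ACTC1 as the closest protein of bovine ACTA1, so the human match does not separate these genes; the bovine gene names used here carry the KEGG gene identifiers that RefSeq gives for ACTA1 and ACTC1.

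**Figure D2:**
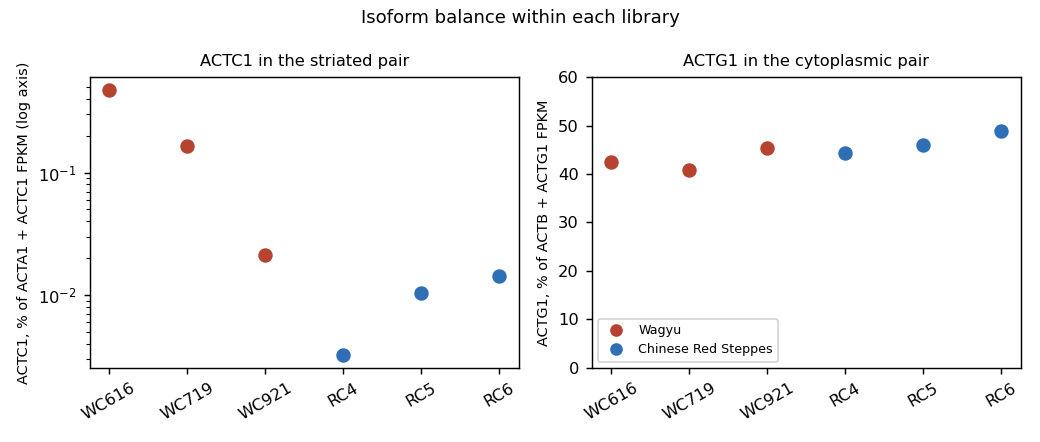
Share of ACTC1 in ACTA1 plus ACTC1 FPKM (left, logarithmic axis, percent) and of ACTG1 in ACTB plus ACTG1 FPKM (right, percent) in each library (points). ACTC1 is 0.468% of the striated pair in WC616 and 0.166% or less elsewhere, while ACTG1 lies between 40.9% and 49.0% of the cytoplasmic pair in all 6 libraries.

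ACTB, the beta-actin of cell cortex and moving cell edges, overlapped between the breeds. ACTB (ENSBTAG00000015441) measured 166, 239 and 176 FPKM in WC616, WC719 and WC921, against 203, 173 and 303 FPKM in RC4, RC5 and RC6. RC6 was highest and WC719 next, and the other 4 libraries lay between 166 and 203 FPKM, so the breeds overlapped. The means were 194 ± 39.8 FPKM in Wagyu, against 226 ± 68.5 FPKM in Chinese Red Steppes (SD, n = 3 each), and the log2 difference was -0.20 (SE 0.24, 95% interval -0.76 to 0.36; limma, adjusted p = 0.733). Without RC6 the log2 difference was 0.03, on the other side of 0.

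ACTG1, the gamma-actin that shares most of these places with ACTB, had a similar order. ACTG1 (ENSBTAG00000006189) measured 123, 165 and 146 FPKM in WC616, WC719 and WC921, against 162, 147 and 291 FPKM in RC4, RC5 and RC6. RC6 again stood above all others, and the other 5 libraries mixed. The means were 145 ± 21.2 FPKM in Wagyu, against 200.2 ± 79.0 FPKM in Chinese Red Steppes (SD, n = 3 each), with a log2 difference of -0.41 (SE 0.26, 95% interval -1.02 to 0.21; limma, adjusted p = 0.508). Without RC6 the log2 difference was -0.10. The highest ACTG1 value, that of RC6, was 2.37 times the lowest, that of WC616, and for ACTB the same libraries differed 1.83 times.

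The balance of the cytoplasmic pair varied little. ACTG1 made up 42.6%, 40.9% and 45.4% of ACTB plus ACTG1 FPKM in WC616, WC719 and WC921, against 44.4%, 46.1% and 49.0% in RC4, RC5 and RC6. WC921 fell inside the Chinese Red Steppes range. The means were 42.9% ± 2.29 in Wagyu, against 46.5% ± 2.30 in Chinese Red Steppes (SD over 3 libraries each), a difference of -3.53 percentage points that did not pass a two-sided exact permutation test (p = 0.2, where 0.1 is the smallest p that 3 against 3 allows). The difference was -2.29 percentage points without RC6, and it lay between -2.49 and -4.75 with any other library left out.

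Summed over the 4 genes, actin transcripts followed ACTA1, which made up 98.6% to 99.3% of the sum in every library. The sum was 36717, 32785 and 31917 FPKM in WC616, WC719 and WC921, against 41548, 43530 and 46352 FPKM in RC4, RC5 and RC6. The means were 33806 ± 2558 FPKM in Wagyu, against 43810 ± 2414 FPKM in Chinese Red Steppes (SD, n = 3 each). Their difference of -10004 FPKM had the smallest p this design can give in a two-sided exact permutation test (p = 0.1), so it cannot pass 0.05. By reads, the 4 genes took 5.56%, 4.97% and 4.83% of each Wagyu library, against 6.29%, 6.59% and 7.03% of each Chinese Red Steppes library.

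ACTB was compared with 12 genes in common use as PCR references. The coefficient of variation over the 6 libraries was 25.3% for ACTB, 34.8% for ACTG1 and 15.3% for ACTA1, against a median of 23.8% for the 12 reference genes and 21.6% for all genes tested. Of the 12, 8 varied less than ACTB and 10 less than ACTG1. This order rests on RC6. Over the 5 libraries without RC6 the coefficient of variation was 15.8% for ACTB, 11.3% for ACTG1 and 14.1% for ACTA1, against a median of 21.3% for the reference genes, and 5 of the 12 varied less than ACTB and 2 less than ACTG1. Over all 6 libraries the steadiest were SDHA, a subunit of succinate dehydrogenase, at 10.8%, HPRT1, a purine salvage enzyme, at 11.1% and RPLP0, a ribosomal protein, at 11.1%. The least steady was YWHAZ, a 14-3-3 protein, at 51.7%. YWHAZ was near the floor, with 0.285 to 2.03 FPKM and 4 to 29 reads per library, so its spread also holds counting error. So does that of TBP, with 33 to 58 reads per library, whose 23.7% lies beside the median of the 12 reference genes. RC6 held the highest value of ACTB, ACTG1 and ACTA1.

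**Figure D3:**
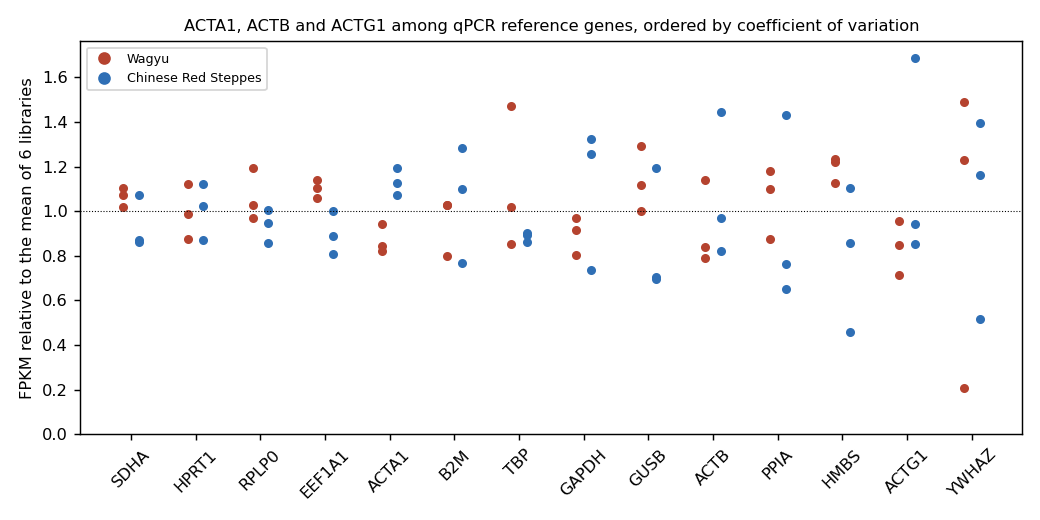
FPKM of ACTA1, ACTB, ACTG1 and all but 1 of the 12 reference genes in each library, divided by the gene's mean over the 6 libraries (vertical axis, no unit), with genes ordered by coefficient of variation. ACTB at 25.3% and ACTG1 at 34.8% sit in the wider part of the row, both with RC6 as their highest point, and SDHA at 10.8% and YWHAZ at 51.7% are its ends. YWHAZ rests on 4 to 29 reads per library.

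Of the other actins and actin-related proteins, 7 were measured and all 7 were tested, and none passed the limma test. Their median log2 difference was 0.13, against 0.03 for all genes tested. Of the 7, 5 lay above 0 and 2 below, where 5362 of all 9990 genes lay above 0 and 4628 below. ACTA2, the alpha-actin of vascular smooth muscle, measured 68.5, 109 and 56.1 FPKM in the Wagyu libraries, against 35.5, 34.1 and 68.1 FPKM in the Chinese Red Steppes libraries (log2 difference 0.77, SE 0.33; limma, adjusted p = 0.341). RC6 lay among the Wagyu values for ACTA2, whose log2 difference was 0.50 without WC719. The 7 smooth muscle markers measured, ACTA2 included, summed to 7386 to 8841 FPKM in Wagyu and 5714 to 7111 FPKM in Chinese Red Steppes, nearly all of it DES, which skeletal fibres also make. The 6 markers other than DES summed to 362, 454 and 266 FPKM in WC616, WC719 and WC921, against 195, 235 and 514 FPKM in RC4, RC5 and RC6, so these sums overlapped and RC6 was highest.

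ACTR1A and ACTR1B, the actin-related proteins of the dynactin filament, were the 2 of the 7 tested members whose breeds did not overlap, both with Wagyu above, as in 11.4% of all genes tested. ACTR1A measured 37.2, 39.0 and 43.3 FPKM in the Wagyu libraries, against 35.5, 30.6 and 26.5 FPKM in the Chinese Red Steppes libraries (log2 difference 0.37, SE 0.15; limma, adjusted p = 0.332). ACTR1B measured 20.2, 19.7 and 19.3 FPKM in the Wagyu libraries, against 17.2, 14.7 and 15.9 FPKM in the Chinese Red Steppes libraries (0.30, SE 0.13; limma, adjusted p = 0.346). ACTR2 and ACTR3 of the Arp2/3 complex, ACTR10 of dynactin and ACTL6A of chromatin remodelling complexes had log2 differences between -0.09 and 0.13, and for ACTR3 and ACTR10 the sign turned when single libraries were left out.

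Over all 18 gene lists read beside the actins, limma called 0 of the genes tested. At an unadjusted p under 0.05 there were 20 of them, a slightly lower share than the 14.5% of all genes tested that passed that level. On reads, edgeR called 1 listed gene, MEF2C, where it called 0.0685% of the genes it tested. DESeq2 called 4, MEF2C, DIAPH1, FHOD3 and CHRNG, where it called 1.94%, and CHRNG was below the filter used for limma. Among 14 tested genes of monomer binding and turnover, 9 lay above 0 and 5 below with a median log2 difference of 0.13, and PFN1 (profilin, which feeds monomers to growing filaments), WDR1 and LIMK2 (which act with and on cofilin) did not overlap, all with Wagyu above, 3 of 14 where 11.4% of all genes did so. PFN1 averaged 177 ± 15.4 FPKM in Wagyu, against 124 ± 25.0 FPKM in Chinese Red Steppes (SD, n = 3 each; limma, adjusted p = 0.286). Among 18 genes of nucleation and capping, 15 lay above 0 with a median of 0.25, 8 did not overlap with Wagyu above and 1, the capping protein subunit CAPZA2, with Wagyu below, where over all genes 11.4% lay above and 9.16% below without overlap. ARPC1B of the Arp2/3 complex was among the 8. Over all genes tested, 5362 of 9990 lay above 0 and 4628 below, to be read beside the counts above 0 of every list.

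The smallest adjusted p of the nucleation list were those of DIAPH1 and FHOD3, which are formins, proteins that build unbranched filaments. DIAPH1 measured 39.3, 33.6 and 52.2 FPKM in the Wagyu libraries, against 20.9, 28.1 and 17.2 FPKM in the Chinese Red Steppes libraries (log2 difference 0.89, SE 0.23; limma, adjusted p = 0.202). FHOD3, a formin of the sarcomere, measured 30.3, 16.1 and 27.9 FPKM in the Wagyu libraries, against 10.7, 10.6 and 16.0 FPKM in the Chinese Red Steppes libraries (0.91, SE 0.27; limma, adjusted p = 0.247). WC719 and RC6 were all but level for FHOD3. Of the other formins listed, FHOD1 had a log2 difference of 0.45 (limma, adjusted p = 0.313) and DAAM1 one of -0.12 (limma, adjusted p = 0.798). DESeq2 on reads called both (adjusted p = 0.0413 for DIAPH1 and 0.0467 for FHOD3), where it called 1.94% of the genes it tested.

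Of 12 tested genes of actin folding and modification, 9 lay above 0 with a median log2 difference of 0.22, and CCT5 and TCP1, subunits of the chaperonin that folds new actin, did not overlap, with Wagyu above, 2 of 12 where 11.4% of all genes did so. MICAL1, which oxidises actin, was the other of the 3 with the smallest adjusted p. Of 14 genes of crosslinking and anchoring, 11 lay above 0 with a median of 0.43. In that list FLNC, the muscle filamin, and TLN1, talin, did not overlap, with Wagyu above, 2 of 14 beside the same 11.4% of all genes. FLNC measured 876, 1044 and 1352 FPKM in the Wagyu libraries, against 700.4, 719.7 and 492 FPKM in the Chinese Red Steppes libraries (0.77, SE 0.22; limma, adjusted p = 0.240). No gene of either list passed the test.

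**Figure D4:**
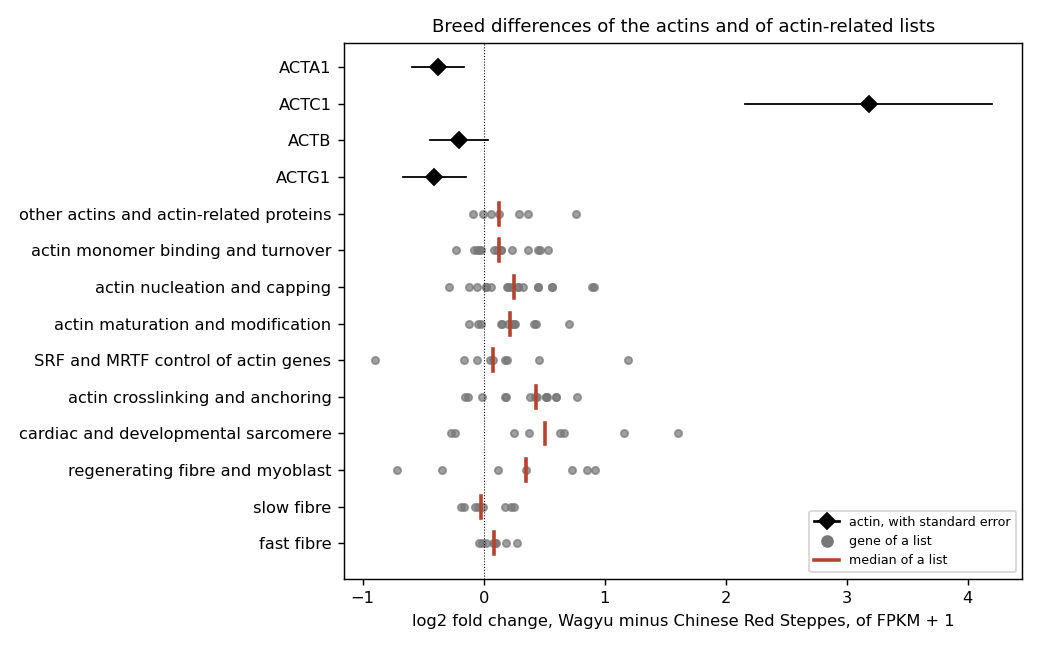
Log2 difference of FPKM + 1, Wagyu minus Chinese Red Steppes (horizontal axis), for the 4 actins (diamonds, bars are the standard error) and for each tested gene of 10 lists (points, with the list median as a bar). ACTC1 at 3.18 was picked for its difference, ACTA1, ACTB and ACTG1 lie at -0.38, -0.20 and -0.41, and the list medians lie between -0.02 and 0.50.

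SRF, with its MRTF partners, switches on actin genes in muscle and in other cells, and MEF2 factors act on many sarcomere genes. SRF averaged 124 ± 10.8 FPKM in Wagyu, against 111 ± 21.4 FPKM in Chinese Red Steppes (SD, n = 3 each; limma, adjusted p = 0.668), and its breeds overlapped. MEF2C measured 34.0, 41.4 and 35.1 FPKM in the Wagyu libraries, against 15.8, 14.8 and 16.0 FPKM in the Chinese Red Steppes libraries. Every Wagyu library was far above every Chinese Red Steppes library, with little spread within a breed. The log2 difference was 1.19 (SE 0.13), which did not pass the test over all genes (limma, adjusted p = 0.0675). It did pass with FPKM scaled to an equal sum (limma, adjusted p = 0.0478), edgeR on reads (adjusted p = 0.0385, and 0.0168 without its filter) and DESeq2 on reads (adjusted p = 8.58e-08). Limma did not call MEF2C with a pseudocount of 0.1, with other filters or under quantile normalization (adjusted p = 0.0648 to 0.108). Nor did limma call MEF2C with any single library left out (adjusted p = 0.0777 to 0.271). Unlike ACTC1, MEF2C was as high in WC921 as in WC616. MKL2, an MRTF, and TEAD1 were next by adjusted p and overlapped between the breeds, and over the 9 tested genes of this list the median was 0.08 with 6 above 0 and 3 below.

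Since ACTC1 belongs to the heart and to immature fibres, genes of those settings were read beside it. MYL7, NPPA, NPPB and GATA4, genes of heart muscle, had 0 reads in all 6 libraries, which allows up to 3 reads per library. The heart factors NKX2-5 and TBX5 and the cardiac myosin-binding protein MYBPC3 were at or below 0.197 FPKM in every library. Other cardiac genes of the lists were expressed. TNNI3, cardiac troponin I, measured 1.77, 1.58 and 0.506 FPKM in WC616, WC719 and WC921, against 0.436, 2.75 and 2.27 FPKM in RC4, RC5 and RC6, and the breeds overlapped. The TNNI3 values rest on 24, 22 and 7 reads in Wagyu, against 6, 37 and 30 reads in Chinese Red Steppes, too few to order all libraries. The part of cardiac-type cells in the ACTC1 values was not tested.

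Genes of developing fibres were low but measurable. MYH3, the embryonic myosin heavy chain, measured 8.31, 7.06 and 0.659 FPKM in WC616, WC719 and WC921, against 0.520, 0.760 and 3.19 FPKM in RC4, RC5 and RC6. As for ACTC1, WC616 and WC719 were highest and WC921 was low, but RC6 lay above WC921 and the breeds overlapped (log2 difference 1.16, SE 0.68; limma, adjusted p = 0.468). With single libraries left out the log2 difference of MYH3 ran from 0.71 without WC616 to 1.95 without WC921. MYH8, the perinatal myosin heavy chain, and MYL4, the embryonic myosin light chain, were also highest in WC616 and next in WC719, at 6.10 and 4.84 FPKM for MYH8 and 2.15 and 1.62 FPKM for MYL4. In WC921 they were at 2.83 FPKM for MYH8 and 0.974 FPKM for MYL4, and in the Chinese Red Steppes libraries at 2.95 to 3.66 FPKM for MYH8 and 0.834 to 1.36 FPKM for MYL4. Neither passed the test (limma, adjusted p = 0.507 for MYH8 and 0.615 for MYL4). Neither was among the 3 genes of its list with the smallest adjusted p. The MYL4 values rest on 26, 20 and 12 reads in the Wagyu libraries, against 15, 10 and 16 reads in the Chinese Red Steppes libraries, too few to order them.

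Other genes of the same lists shared that order in part or not at all. CSRP3, the muscle LIM protein, measured 2459, 1911 and 2982 FPKM in the Wagyu libraries, against 852, 1753 and 333 FPKM in the Chinese Red Steppes libraries, and was thus highest in WC921, where ACTC1 was lowest in Wagyu (log2 difference 1.60, SE 0.54; limma, adjusted p = 0.283). Without RC6 that difference was 0.98. ANKRD1 measured 260, 582 and 234 FPKM in the Wagyu libraries, against 236, 142 and 284 FPKM in the Chinese Red Steppes libraries (limma, adjusted p = 0.481). It was thus highest in WC719. XIRP1 measured 31.4, 53.8 and 73.5 FPKM in the Wagyu libraries, against 29.2, 82.1 and 92.2 FPKM in the Chinese Red Steppes libraries (limma, adjusted p = 0.820). Its highest value was that of RC6. TNNT2, cardiac troponin T, measured 3.26, 3.51 and 2.35 FPKM in the Wagyu libraries, against 2.25, 2.19 and 0.557 FPKM in the Chinese Red Steppes libraries (limma, adjusted p = 0.367). The TNNT2 values rest on 30, 33 and 22 reads in Wagyu, against 21, 20 and 5 reads in Chinese Red Steppes, too few to order all libraries. MYOG, myogenin of differentiating myoblasts, was lowest in WC921 at 8.04 FPKM and measured 16.1 to 26.0 FPKM in the other Wagyu libraries, against 22.0 to 29.4 FPKM in the Chinese Red Steppes libraries. The adhesion molecule NCAM1 and the cell cycle inhibitor CDKN1A also stayed under the call. CHRNG, the fetal acetylcholine receptor subunit, was below the filter on low values and is shown because its values were seen, at 1.09, 1.92 and 0.822 FPKM in the Wagyu libraries, against 0.216, 0.220 and 0.187 FPKM in the Chinese Red Steppes libraries. These values rest on 23 to 54 reads in Wagyu and 5 to 6 reads in Chinese Red Steppes, and CHRNG was called by DESeq2 on reads but not by edgeR. WC719 was highest for CHRNG, and WC616 and WC921, with 30 and 23 reads, cannot be ordered. Of the 8 tested cardiac and developmental genes 6 lay above 0, and of the 7 tested genes of regenerating fibres 5 did, with medians of 0.50 and 0.35 and no call by limma. Over all genes tested 5362 of 9990 lay above 0.

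**Figure D5:**
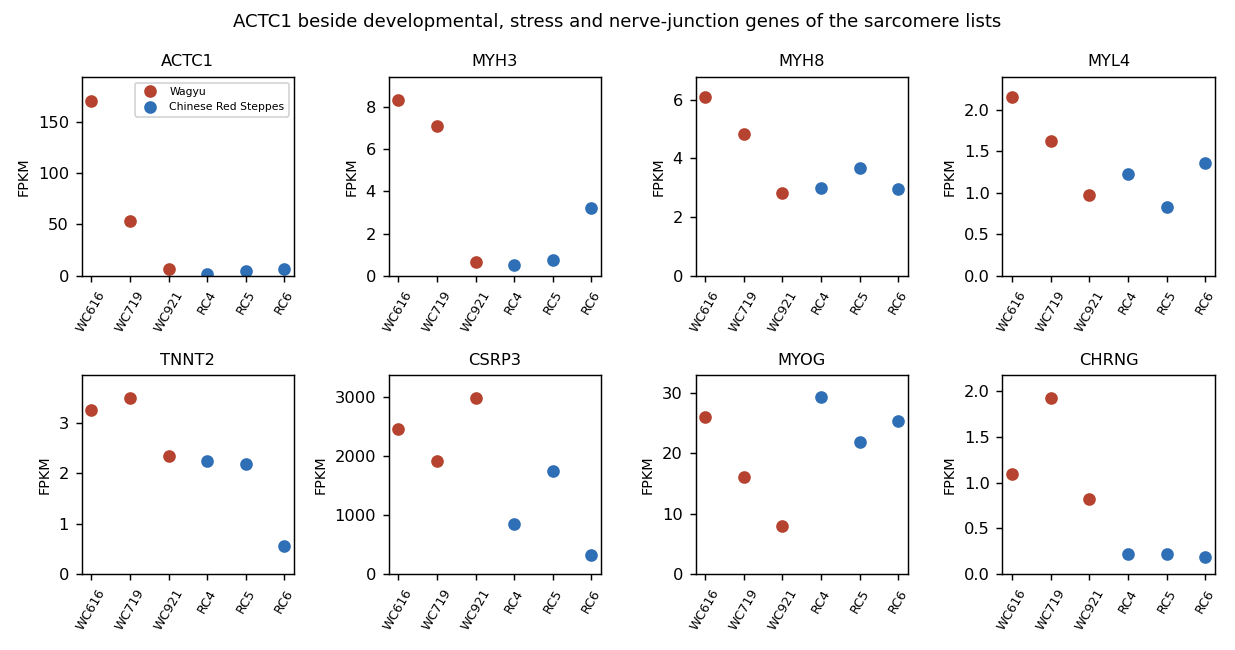
FPKM (vertical axes, from 0) of ACTC1 and of 7 genes of developing fibres, stretch or the nerve junction in each library (points). WC616 and WC719 are the highest points for ACTC1, MYH3, MYH8, MYL4, TNNT2 and CHRNG, while CSRP3 is highest in WC921 and MYOG in RC4. MYL4 (10 to 26 reads per library), TNNT2 (5 to 33 reads) and CHRNG (5 to 54 reads) have too few reads to order all libraries.

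Fibre type markers were read beside the striated actins. The 8 slow fibre markers summed to 49013, 39637 and 36731 FPKM in WC616, WC719 and WC921, against 30079, 25942 and 81081 FPKM in RC4, RC5 and RC6. Within Wagyu this was the order of ACTC1, and the Wagyu sums lay above those of RC4 and RC5, while RC6 had the highest sum and 6.55 FPKM of ACTC1. The 8 fast fibre markers summed to 77762, 73453 and 62394 FPKM in the Wagyu libraries, against 81221, 90582 and 40490 FPKM in the Chinese Red Steppes libraries, again with the ACTC1 order within Wagyu. ACTA1 and the FPKM summed over all genes (672299, 661566 and 650718 in WC616, WC719 and WC921) had that order too. Nothing is read from a shared order within Wagyu. ACTA1 was highest in RC6, where the fast fibre sum was lowest. The part of fibre type in the actin values was not tested. Median log2 differences were -0.02 for slow and 0.09 for fast markers.

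Cells other than fibres make ACTB and ACTG1, so their markers are given beside that pair. The 8 fibroblast markers summed to 230, 144 and 218 FPKM in WC616, WC719 and WC921, against 167, 182 and 82.3 FPKM in RC4, RC5 and RC6, and were lowest in RC6, which had the highest ACTB and ACTG1. In RC6 the smooth muscle sum without DES and the fat cell sum were the highest of the 6 libraries, but the members of both lists were split. FABP4 and PPARG were highest in RC6 (10.1 and 2.27 FPKM), while ADIPOQ, PLIN1 and CIDEC were lowest there (0.0783, 0.966 and 0.0521 FPKM). TAGLN, LMOD1 and CNN1 were highest in RC6, but ACTA2 and MYH11 were highest in WC719 and SMTN in WC616. Endothelial markers (8 genes) summed to 121 to 154 FPKM in Wagyu and 78.8 to 131 FPKM in Chinese Red Steppes. Leukocyte markers (8 genes) summed to 19.1 to 32.2 FPKM in Wagyu and 11.9 to 25.4 FPKM in Chinese Red Steppes, and fat cell markers (7 genes) to 18.0 to 21.7 FPKM in Wagyu and 12.2 to 26.5 FPKM in Chinese Red Steppes. In RC5 the 3 red blood cell markers reached 41.2 FPKM, against 0.954 FPKM or less elsewhere. All 8 fibroblast markers lay above 0 (median log2 difference 0.53), as did 7 of 8 endothelial markers (0.29) and 5 of 7 smooth muscle markers (0.42). Above 0 were also 5 of 6 tested leukocyte markers (0.30) and 1 of 4 tested fat cell markers (-0.15). Over all genes tested 5362 of 9990 were above 0. No marker of these lists passed limma, and the part of these cells in the actin values was not tested.

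Among the 5 genes whose pattern over the 6 libraries was most like that of ACTC1 were CRIPT, EFNA4, HDAC1 and TRANK1. Likeness is the root mean square difference between profiles of log2(FPKM + 1), each centred on its mean and divided by its SD, and it was 0.147 for CRIPT, a postsynaptic density binding protein, and 0.229 for TRANK1. CRIPT measured 19.5, 17.4 and 14.9 FPKM in the Wagyu libraries, against 13.5, 13.9 and 14.1 FPKM in the Chinese Red Steppes libraries, so it had the order of ACTC1 with a much smaller range. For ACTB the nearest were BTG3 (0.0873), NDUFB5, DHODH, PPAN-P2RY11 and ZBTB46 (0.220). With FPKM scaled to an equal sum, 1 of the 5 genes nearest to ACTC1 and 3 of the 5 nearest to ACTB were still among the nearest 5. Profiles over 6 libraries share depth and composition, and near matches among 9990 genes are given as a description.

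Beside ACTC1 in the order of genes on the cattle chromosome, GJD2, a neuronal gap junction protein, was listed at 0 in all 6 libraries. On the other side AQR, an RNA helicase of splicing, measured 0.687, 0.893 and 0.675 FPKM in the Wagyu libraries, against 0.790, 1.57 and 1.27 FPKM in the Chinese Red Steppes libraries. AQR was thus highest in RC5 and RC6, and ACTC1 in WC616 and WC719. The next genes out, TRNAY-GUA and MIR2285G-2, were not analysed here.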

How the data were processed

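Libraries were grouped by GEO's labels. The authors deposited FPKM for 21972 genes per library, without pooling, and counts for 205 genes. For alignment, TopHat and Bowtie on UMD_3.1.1 are named in the paper's methods, but HISAT2 and UMD3.1 in the notes of the submitters, and it was not settled which apply to the deposited values. Strand and the treatment of reads that near-identical genes share were not given in the sources used here. Actin values are uncertain to that extent. The authors' fold changes, FDR values and breed means were not used.

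Reads per gene were worked out from the FPKM with the deposited counts. They were whole within 0.001 read for 16770 of 16770 genes above 0 (100%), and equalled the deposited counts in all libraries for 203 of 205 genes. A read may be a read pair. Replicates were compared by chi-square and differed by more than counting noise (26.6 to 179 per degree of freedom). Wilson intervals (95%) and the floor of 3 reads leave out all error but that of counting. Genes were tested mainly with limma 3.58.1 (eBayes with trend, two-sided, Benjamini-Hochberg at 0.05, R 4.3.3) on log2(FPKM + 1) for genes with mean FPKM of at least 1, which understates changes of low genes. edgeR 4.0.16 (quasi-likelihood) and DESeq2 1.42.0 on the recovered reads, another pseudocount (0.1), other filters, 2 scalings and left-out libraries were alternatives. Exact permutation tests used scipy 1.17.1 (Python 3.11.15). P-values measure the spread between these animals only. On simulated data for 3 against 3 libraries, limma (9802 genes) called 21 of the 100 genes set to change 2-fold and 83 of the 100 set to change 4-fold, and made 5 false calls. DESeq2 (11445 genes) called 40 and 93 of them and made 34 false calls, and edgeR (11493 genes) called 24 and 89 and made 5.

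Names were matched by the table's gene name, then its symbol, and gene order came from RefSeq's ARS-UCD2.0 table. Coordinates are not given, since the files use another build. Members and the 18 lists were chosen with earlier results of these data known. Named were the actins, all other actins and actin-related proteins, up to 3 genes per list by adjusted p, markers at 0, the 5 genes most like ACTC1 and ACTB, and the genes next to ACTC1. A few genes that this rule picks are not reported here.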

Additional observations from a re-analysis of the deposited data

How the results depend on the processing

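The actin differences were recomputed under 14 alternatives each. Alternatives that changed only the limma filter left each log2 difference as it was, so they could not turn a direction. ACTC1 was picked for its difference, so its direction is a description and no support is read from it. ACTG1 kept its direction in 14 and ACTC1 in 14, ACTA1 in 13 (0 under quantile normalization, by construction) and ACTB in 13 (-0.38 to 0.029 with each library left out, above 0 without RC6, the cause was not tested), and ACTA1, ACTB and ACTG1 passed the test under none (limma, edgeR and DESeq2 adjusted p 0.264 to 1). The ACTC1 ratio of means was 7.32 to 27.1 when each library was left out in turn, lowest without WC616, and the coefficient of variation of ACTB was 15.8% to 28.1% and that of ACTG1 11.3% to 38.5%, both lowest without RC6. These 3 were added after seeing the data. The number of genes called, 2 by limma, was 1 with a pseudocount of 0.1, 0 without the filter on low values, 0 with a mean FPKM of at least 5, 5 with FPKM scaled to an equal sum and 0 to 3 when each library was left out. On recovered reads it was 8 with edgeR, 32 with edgeR without its filter (fewer low genes removed) and 237 with DESeq2. Scaling moved the median log2 difference of all genes by less than 0.1, but changed the split of genes above and below at an unadjusted p under 0.05. Over 53 other named genes, 712 of 727 alternatives kept the direction. That count includes the alternatives that changed only the limma filter, which could not turn it. Apart from the other actins and actin-related proteins, these genes were taken for the smallest adjusted p of their lists in these same libraries. With FPKM scaled to an equal sum the log2 difference turned for ACTR10 (0.046). When each library was left out in turn, the log2 difference ran from -0.084 to 0.13 for ACTR10 (above 0 without WC921 or RC6), from -0.060 to 0.26 for ACTR3 (below 0 without WC719, RC4 or RC5) and from -0.046 to 0.82 for TNNT1 (below 0 without RC4 or RC5). Without RC6 lay the lower ends of -0.033 to 0.46 for ATP2A1, -0.20 to 0.38 for MYLPF and -0.17 to 0.28 for TNNT3, and the upper ends of -1.11 to 0.12 for FABP4 (also above 0 without WC921), -0.41 to 0.0078 for PPARG and -0.46 to 0.19 for TNNC1. The cause of these was not tested. No paired analysis was possible because the breeds share no replicate numbers. Depth did not limit ACTA1, ACTB or ACTG1, with 3810 or more reads in each library, and limits ACTC1 in RC4, with 30 reads.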
